A study of Mus musculus with 48 samples.

Results

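Monocytic macrophages kept for 1 day with Ito cells were compared with macrophages of the same kind kept in MCSF alone. The comparison used 6 of the 48 arrays of the study, 3 of cultures with Ito cells and 3 of controls, chosen by their titles. The macrophages were grown from blood monocytes of male BALB/c mice, sorted magnetically by the CD115 antigen, which is the receptor of MCSF. All cultures began with 1 day in MCSF, which macrophages need to survive. The Ito cultures were then kept with Ito cells for 1 day, and the controls stayed in MCSF, for 2 days of MCSF in total. The study also had cultures with CD146 cells, which are endothelial cells of the liver sinusoids, and with HGF, cultures of 3 days, and the same set for Kupffer cells, which are macrophages that reside in the liver. The labels do not say whether Ito cells were held apart or taken away ahead of lysis, and they leave out whether MCSF was kept on with Ito cells. Titles call the replicates biological, but no label says that they came from separate animals, so the p-values measure the spread between these cultures.

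Ito cells, or hepatic stellate cells, store vitamin A in the healthy liver and become the main producers of collagen after injury. They lie beside the macrophages of the sinusoid and exchange growth factors and cytokines with them. Macrophages read such signals through JAK kinases and STAT factors, through SMAD factors for activins and TGF-beta, and through NF-kappaB for interleukin 1. Follistatin and the proteins of the SOCS family are inhibitors that bind activins and block JAK signalling.

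Levels are log2 signals after quantile normalization of the 6 arrays. A value in parentheses after a gene is the log2 difference, Ito cells minus control, with the standard error from limma (n = 3 arrays in each group). A gene is said to have risen or fallen where its p, adjusted by Benjamini and Hochberg over 19505 genes, was under 0.05. Of these genes 2982 passed (15.3%), 1810 of them higher with Ito cells (9.28%) and 1172 lower (6.01%). The 3 arrays of 1 group did not overlap those of the other for 3849 genes on the higher side (19.7%) and 2848 on the lower (14.6%). Of the genes that passed, 662 rose and 408 fell by at least 2-fold, and 58 rose and 30 fell by at least 4-fold. Profiles of 1 group correlated by 0.991 to 0.994 over genes, and profiles of different groups by 0.980 to 0.985.

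The balance of rises and falls rested on the normalization. The median difference of all genes was 0.048 after quantile normalization and -0.284 in the deposited values, which gave 761 genes higher and 4187 lower. Centring each array on the median of its genes gave 1454 and 1425. The count of 2982 became 1711 without replicate 2 of the Ito cultures, 1790 without their replicate 3, 1714 without replicate 1 of the controls, and 1769 where all 48 arrays shared 1 estimate of the spread. Lists of genes moved with these settings too. Brackets behind the count of each list therefore give its rises and falls with all 48 arrays quantile normalized in the fit. Those with the deposited values follow after the comma. Over all 19505 genes the same counts were 1105 and 664, and 761 and 4187. A list whose share of calls lay near the 9.28% and 6.01% of all genes gives no result about its members.

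Probe sets with no target averaged 5.36 in the Ito cultures and 5.62 in the controls, which is the level called background here. Of all genes 10620 lay under it in both groups, 874 of the genes that passed among them. Where a gene lay under it in 1 group, "at least" marks a fold computed against the background of that group.

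**Figure D1:**
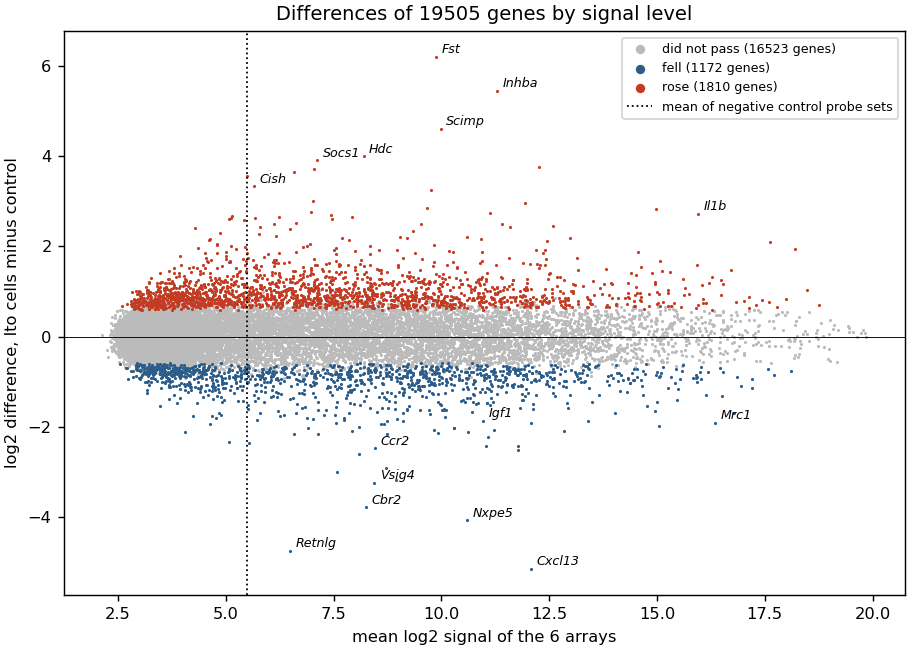
Each point is 1 of 19505 genes, with the mean log2 signal of the 6 arrays on the x axis and the log2 difference (Ito cells minus control) on the y axis. The 1810 genes that rose are red, the 1172 that fell are blue, and the dotted line marks the negative control probe sets. Fst and Inhba stand highest and Cxcl13 lowest.

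Follistatin and activin A led the rises. Fst, which encodes the secreted antagonist of activins, read 13.06, 12.997 and 12.88 in the Ito cultures and 6.49, 6.60 and 7.23 in the controls, 74.02-fold higher (6.21 ± 0.22, adjusted p = 4.02e-09). Inhba, the subunit of activin A, read 14.17, 14.01 and 13.86 against 8.45, 8.9996 and 8.21, 43.99-fold higher (5.46 ± 0.23, adjusted p = 9.1e-09). Ligand and antagonist were thus high together in each Ito culture, with a wide gap to every control. The rest of the pathway moved less: among 26 measured genes of activin and TGF-beta signalling 5 rose and 2 fell (2 and 1, 3 and 9), with a median of -0.115. Tgfbi, a matrix protein induced by TGF-beta, fell (-0.95 ± 0.19), and so did Tgfbr2, a receptor of TGF-beta (-0.81 ± 0.18). The other rises, of Id1 (0.87 ± 0.26), Bmpr1a (0.86 ± 0.21) and Thbs1 (0.69 ± 0.19), were each lost without some single arrays, and 2 to 5 genes of the list rose when 1 array was left out. Tgfbr2 was lost in a fit of all 48 arrays (adjusted p = 0.0547). Tgfb1 itself read 15.42, 15.84 and 15.74 with Ito cells and 15.42, 15.47 and 15.67 without, and these overlapped (0.14 ± 0.20, adjusted p = 0.67).

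**Figure D2:**
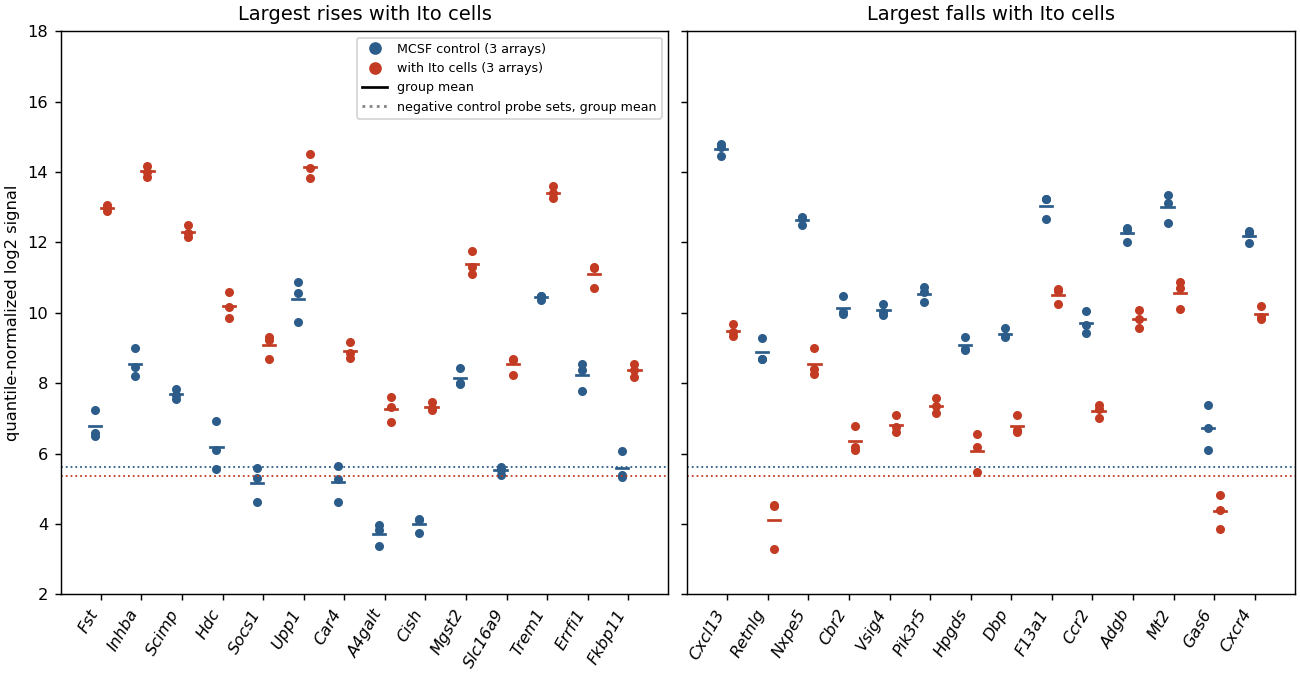
Quantile-normalized log2 signal of the 14 largest rises (left) and 14 largest falls (right) that were not under the negative controls in both groups. Points are single arrays, short lines are group means and dotted lines the negative control means. Only genes that passed without overlap of the groups were eligible, and unnamed gene models and families of near-identical genes were skipped. Socs1, Car4, A4galt, Cish, Slc16a9 and Fkbp11 have control means under the negative controls, and Retnlg and Gas6 have Ito means under them.

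Other leading rises came from several functions. Scimp, an adaptor of Toll-like receptor signalling, read 12.15, 12.25 and 12.49 against 7.55, 7.67 and 7.83 (4.62 ± 0.20, 24.5-fold). Hdc, the enzyme that makes histamine, read 9.85, 10.16 and 10.59 against 6.10, 5.56 and 6.93 (4.0004 ± 0.31, 16.00-fold). Upp1, which breaks down uridine, read 13.84, 14.11 and 14.52 against 9.75, 10.56 and 10.88 (3.76 ± 0.28). In these genes the lowest Ito culture lay more than 2 log2 units above the highest control. Trem1, a receptor that amplifies inflammatory signals, read 13.25, 13.40 and 13.60 against 10.48, 10.37 and 10.48 (2.97 ± 0.19). Mgst2, a microsomal glutathione transferase, rose (3.25 ± 0.23), as did Errfi1, an inhibitor of the epidermal growth factor receptor (2.85 ± 0.24), Pla1a, a phospholipase (2.70 ± 0.23), Glipr2 (2.73 ± 0.22) and Procr, the receptor of protein C (2.50 ± 0.27). The membrane carbonic anhydrase Car4 rose at least 9.81-fold and A4galt, which makes the glycolipid Gb3, at least 3.16-fold. Itga2, a subunit of a collagen-binding integrin, rose at least 3.87-fold. The largest adjusted p of these genes was 5.78e-05, that of Procr.

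Feedback inhibitors of JAK and STAT signalling were among the largest rises. Socs1, which blocks JAK kinases, read 9.32, 9.23 and 8.69 with Ito cells and 4.61, 5.31 and 5.58 in the controls, at least 11.03-fold higher (3.91 ± 0.26, adjusted p = 1.06e-06). Cish, an inhibitor that STAT5 induces, read 7.24, 7.30 and 7.45 against 4.11, 4.14 and 3.73, at least 3.28-fold higher (3.34 ± 0.20, adjusted p = 5.63e-07). The control means of both genes lay under background. Socs3, which STAT3 induces, read 10.74, 10.53 and 10.36 against 10.55, 11.51 and 11.31, and these arrays overlapped (-0.58 ± 0.25, adjusted p = 0.131), though the gene passed with the deposited values and without control replicate 1. In the list of anti-inflammatory genes and inhibitors 2 of 17 rose (2 and 0, 2 and 4), Socs1 and Il13ra1, a receptor chain for interleukin 13 (0.88 ± 0.19, lost in a fit of the 48 deposited arrays with adjusted p = 0.112), with a median of -0.054. Il10, the anti-inflammatory cytokine, lay under background on average in both groups. Il1rn, the interleukin 1 receptor antagonist, read 17.95 to 18.09 with Ito cells and 17.67 to 18.03 without (0.15 ± 0.19). Csf2, the gene of GM-CSF, a cytokine that signals through STAT5, read 2.97 to 3.17 against 3.30 to 4.71, under background in every array.

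Sequence before the start of 5 genes that rose is shown, because sites for STAT, AP-1 and NF-kappaB factors can lie there. Each run holds the 250 bases before the start, 5′ to 3′ on the strand of the gene, from the RefSeq promoter table of GRCm38.p6. Capitals mark matches on either strand to TTCNNNGAA (STAT), TGANTCA (AP-1) or a kappaB motif (NF-kappaB). Cish lies at chr9:107296409-107296658 (plus strand), Trem1 at chr17:48232489-48232738 (plus), Ccl17 at chr8:94810203-94810452 (plus), Il6 at chr5:30012864-30013113 (plus) and A4galt at chr15:83251730-83251979 (minus).
Cish: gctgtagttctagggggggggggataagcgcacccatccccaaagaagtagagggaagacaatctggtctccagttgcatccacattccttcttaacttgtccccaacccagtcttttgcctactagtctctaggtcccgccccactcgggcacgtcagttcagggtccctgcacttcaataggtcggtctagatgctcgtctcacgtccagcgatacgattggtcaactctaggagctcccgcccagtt
Trem1: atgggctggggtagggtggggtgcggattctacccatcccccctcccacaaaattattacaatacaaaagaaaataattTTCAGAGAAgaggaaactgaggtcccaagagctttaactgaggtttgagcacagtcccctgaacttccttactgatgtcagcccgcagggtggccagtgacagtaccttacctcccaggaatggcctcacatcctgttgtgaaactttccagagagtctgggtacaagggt
Ccl17: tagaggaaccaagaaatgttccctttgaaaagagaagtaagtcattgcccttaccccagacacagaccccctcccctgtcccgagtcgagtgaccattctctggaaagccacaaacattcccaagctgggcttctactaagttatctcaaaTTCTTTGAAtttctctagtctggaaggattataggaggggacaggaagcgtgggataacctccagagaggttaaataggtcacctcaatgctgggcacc
Il6: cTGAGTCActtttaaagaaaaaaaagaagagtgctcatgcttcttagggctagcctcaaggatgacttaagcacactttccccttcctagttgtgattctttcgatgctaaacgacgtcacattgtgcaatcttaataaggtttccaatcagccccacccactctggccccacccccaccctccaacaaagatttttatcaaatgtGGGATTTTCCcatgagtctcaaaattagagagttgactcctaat
A4galt: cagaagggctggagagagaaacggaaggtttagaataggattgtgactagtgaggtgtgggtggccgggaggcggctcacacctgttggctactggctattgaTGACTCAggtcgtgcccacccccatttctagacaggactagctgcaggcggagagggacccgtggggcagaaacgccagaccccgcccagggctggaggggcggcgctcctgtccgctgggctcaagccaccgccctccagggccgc
Trem1 held TTCAGAGAA from 171 to 163 bases before the start, and Ccl17 held TTCTTTGAA from 99 to 91. Il6 held TGAGTCA from 249 to 243 and GGGATTTTCC from 44 to 35, and A4galt held TGACTCA from 147 to 141. The Cish run held none of these letters. The 5 genes were chosen with their matches in view, so they show no excess. Of the 20 largest rises 17 had entries in the table, with TTCNNNGAA in 1, TGANTCA in 3 and the kappaB motif in 0 of them, and of the 20 largest falls 19 had entries, with 1, 2 and 1. Over all 32851 runs of that table the shares were 7.02%, 6.75% and 1.41%. These shares count runs, while the counts above are of genes, whose entries held 22 runs for the rises and 20 for the falls. A match is a run of letters only.

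Inflammatory cytokines moved in both directions. Il1b, which encodes interleukin 1 beta, read 17.13, 17.44 and 17.36 with Ito cells and 13.75, 15.27 and 14.75 without (2.72 ± 0.31, adjusted p = 0.000103). Il6 read 14.22, 13.64 and 13.59 against 10.97, 12.40 and 10.69 (2.46 ± 0.36, adjusted p = 0.00071). Their controls were spread over more than 1 log2 unit, and none reached an Ito culture. Osm, a relative of interleukin 6, read 12.71, 12.71 and 13.03 against 9.95, 10.57 and 10.65 (2.43 ± 0.23), and Il12a, a subunit of interleukin 12, read 9.09, 9.14 and 9.49 against 6.24, 6.53 and 7.01 (2.65 ± 0.23). Tnf went the other way, with 11.07, 11.29 and 11.55 in the Ito cultures and 12.23, 13.70 and 12.84 in the controls (-1.62 ± 0.30, adjusted p = 0.00358). So interleukins rose while tumour necrosis factor fell, without overlap of the arrays. Il1a rose (1.58 ± 0.31), and so did Csf3, or G-CSF (1.70 ± 0.39), and Ptgs2, the inducible cyclooxygenase (1.22 ± 0.31). Nos2, the inducible nitric oxide synthase, rose at least 2.25-fold. Of 17 pro-inflammatory cytokines and enzymes 9 rose and 4 fell (7 and 0, 8 and 6), with a median of 0.953 (6 to 9 rose and 3 to 5 fell when 1 array was left out). Il1a, Tnf, Nos2, Csf3 and Ptgs2 did not pass in some fits of all 48 arrays (adjusted p up to 0.278, for Tnf). Csf3 also missed without Ito replicate 3, and Ptgs2 without Ito replicates 2 or 3.

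Genes of the TNF superfamily rose in 5 and fell in 4 of 18 cases (4 and 2, 4 and 6). Tnfrsf9, the costimulatory receptor 4-1BB, read 13.09, 13.54 and 13.87 against 11.48, 11.42 and 11.25 (2.11 ± 0.22), and its ligand Tnfsf9 fell (-1.23 ± 0.21). Ltb, lymphotoxin beta, rose to just over background, at least 1.04-fold, and Tnfrsf11a, the receptor RANK, fell (-1.35 ± 0.21). Of 13 genes of MHC class II and costimulation 4 rose and 3 fell (1 and 1, 1 and 3), and 2 to 5 and 1 to 3 when 1 array was left out. Cd80, a ligand of CD28, read 15.51, 15.41 and 15.62 against 13.77, 13.35 and 13.76 (1.89 ± 0.20), while Cd40, a receptor for help from T cells, read 5.74, 5.38 and 5.03 against 6.57, 7.36 and 7.20 (-1.66 ± 0.25). A costimulatory gene was thus higher in every Ito culture and another lower. Tnfsf9 was lost in a fit of 48 arrays (adjusted p = 0.0712).

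Growth factors rose in 5 and fell in 6 of 21 cases (4 and 3, 5 and 8), 3 of them at background. Fgf2, a fibroblast growth factor, rose (1.22 ± 0.20), and Ereg, a ligand of the epidermal growth factor receptor, read 13.65, 13.33 and 12.85 against 10.68, 12.08 and 11.52 (1.85 ± 0.31). Igf1, insulin-like growth factor 1, read 9.91, 9.99 and 10.16 with Ito cells and 12.08, 11.99 and 11.63 without (-1.88 ± 0.20, adjusted p = 6.15e-05). Gas6, a ligand of the TYRO3, AXL and MERTK receptors, fell at least 2.57-fold. Pdgfb, a growth factor for Ito cells, read 5.51, 5.72 and 5.73 against 6.36, 7.25 and 7.17 (-1.27 ± 0.24), and Csf1, the gene of MCSF, fell (-1.07 ± 0.23). The growth factors that fell thus include MCSF, which had been given to all cultures. Hgf (0.35 ± 0.26) overlapped between the groups and turned to -0.11 with the deposited values, and its receptor Met did not pass (0.77 ± 0.26, adjusted p = 0.0579), though it did with array weights, the replicate block, trended variances, background genes left out or without control replicate 3. Fgf2, Ereg, Pdgfb and Csf1 were lost in some fits of 48 arrays (adjusted p up to 0.213, for Csf1).

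The fall of Cxcl13, which attracts B cells, was the largest of all. It read 9.35, 9.44 and 9.68 with Ito cells and 14.45, 14.81 and 14.70 in the controls, 35.9-fold lower (-5.16 ± 0.20, adjusted p = 5.01e-09). Of the CC chemokines 1 of 13 rose and 3 fell (1 and 1, 2 and 3). Ccl17, a ligand of the receptor CCR4, read 10.22, 9.97 and 10.22 against 7.9997, 7.81 and 7.95 (2.22 ± 0.19), while Ccl8 fell at least 2.44-fold and Ccl24, or eotaxin 2, fell (-1.63 ± 0.23). Ccl2, the chief attractant of monocytes, read 18.80, 18.73 and 18.85 against 18.22, 18.41 and 18.14, which did not overlap, but did not pass (0.54 ± 0.19, adjusted p = 0.071). With the deposited values, median centring, background genes left out or trended variances it passed (adjusted p up to 0.0424). Of 7 neutrophil chemokines Cxcl3 rose (0.84 ± 0.23), a call lost without Ito replicates 1 or 2 or control replicates 1 or 3, and Cxcl1 (-0.48 ± 0.34) and Cxcl2 (-0.09 ± 0.24) overlapped. Ccl24 was lost in 1 fit of 48 arrays (adjusted p = 0.118).

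Of 8 chemokine receptors 3 rose and 4 fell (1 and 2, 2 and 4), and 1 to 3 and 3 when 1 array was left out. Ccr2, the receptor of CCL2, read 7.26, 7.38 and 7.02 with Ito cells and 10.04, 9.64 and 9.43 in the controls (-2.49 ± 0.21, adjusted p = 1.07e-05). Cxcr4, the receptor of CXCL12, read 9.88, 9.83 and 10.18 against 12.26, 11.98 and 12.32 (-2.22 ± 0.20). Both receptors that guide monocytes were lower in every Ito culture. Ackr3, an atypical receptor that also binds CXCL12, rose at least 1.84-fold. Among 18 integrins and adhesion genes 3 rose and 2 fell (1 and 2, 2 and 4). Itga4, part of the receptor for VCAM1, read 10.30, 10.26 and 9.9996 against 12.19, 12.41 and 12.21 (-2.08 ± 0.19), and Itga6, part of laminin receptors, fell (-1.04 ± 0.20), while Itgal, part of LFA-1, rose (1.15 ± 0.22), a call lost in 1 fit of 48 arrays (adjusted p = 0.115).

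The macrophage label was borne out by marker genes. The mean of 12 core macrophage genes was 15.95 to 15.99 in the Ito cultures and 16.09 to 16.21 in the controls, with 1 rise and 2 falls among them (0 and 0, 1 and 3). Csf1r, the receptor used for the sort, read 15.47, 15.44 and 15.43 against 15.92, 15.84 and 15.90 (-0.44 ± 0.18, adjusted p = 0.121), and Adgre1, or F4/80, overlapped (0.12 ± 0.19). Fcer1g, the common gamma chain of Fc receptors, fell (-0.84 ± 0.19), and so did Aif1 (-0.94 ± 0.23), whose call was lost without control replicate 2 and in a fit of 48 arrays (adjusted p up to 0.103). Of 13 monocyte genes 3 rose and 3 fell (2 and 3, 2 and 4). Plac8, a gene of monocytes, read 8.64, 8.35 and 9.30 against 6.18, 6.06 and 6.25 (2.61 ± 0.24). F13a1, a coagulation factor subunit, read 10.61, 10.69 and 10.25 against 13.22, 12.67 and 13.22 (-2.52 ± 0.22), and Hp, haptoglobin, fell (-1.82 ± 0.28). Ly6c2, a surface protein of classical monocytes, overlapped (0.63 ± 0.28, adjusted p = 0.138) and passed with the replicate block and without Ito replicate 1.

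Genes of Kupffer cells fell in 8 and rose in 2 of 19 cases (1 and 4, 1 and 10), with a median of -0.309. Of the 19 genes 11 lay under background in both groups, 3 of the genes that passed among them. Vsig4, a complement receptor of liver macrophages, read 6.76, 6.60 and 7.11 with Ito cells and 9.94, 10.03 and 10.26 without (-3.25 ± 0.21, adjusted p = 8.19e-07). Marco, a scavenger receptor, read 5.89, 6.40 and 5.86 against 8.24, 8.35 and 8.05 (-2.16 ± 0.21), and Folr2, a folate receptor, read 8.47, 8.77 and 9.17 against 10.83, 11.004 and 10.78 (-2.07 ± 0.22). Il18bp, the antagonist of interleukin 18, fell as well (-1.64 ± 0.23). All of these were above background in the controls and lower in every Ito culture. The rises were those of Slc16a9, a member of the monocarboxylate transporter family (at least 7.55-fold), and, at background, Cdh5. Marco was lost in 1 fit of 48 arrays (adjusted p = 0.0539). Large falls outside the lists were those of Cbr2, a carbonyl reductase, with 6.78, 6.10 and 6.18 against 10.01, 9.95 and 10.47 (-3.79 ± 0.23), and Pik3r5, a subunit of phosphoinositide 3-kinase gamma, with 7.35, 7.15 and 7.57 against 10.59, 10.73 and 10.30 (-3.18 ± 0.21).

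Scavenger and efferocytosis genes fell in 6 and rose in 2 of 21 cases (1 and 3, 1 and 10), and complement genes fell in 5 of 14 (0 and 1, 0 and 7), and 3 to 4 fell when 1 array was left out. C1qb, part of the first complement component, read 15.70, 15.78 and 16.06 against 17.09, 17.23 and 17.16 (-1.31 ± 0.19). C1qc (-1.30 ± 0.19) and C1qa (-0.94 ± 0.21), the other chains of C1q, fell with it. Colec12, a scavenger receptor of the collectin family, rose instead (1.58 ± 0.19). Of 6 Fc receptor genes 2 fell (0 and 1, 0 and 3), Fcer1g and Fcgrt, the neonatal Fc receptor (-1.19 ± 0.25). The C1q genes and Fcer1g were lost in some fits of 48 arrays (adjusted p up to 0.388, for C1qa), and C1qa also with median centring.

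Genes of alternative activation were divided, with 5 of 19 up, 4 down (3 and 3, 3 and 7) and a median of -0.065. Mrc1, the mannose receptor, read 16.20, 15.03 and 14.97 with Ito cells and 17.49, 17.62 and 16.81 without (-1.91 ± 0.31, adjusted p = 0.00158). The lectin gene Clec10a rose (1.37 ± 0.24), as did Klf4, a factor that promotes this state (1.35 ± 0.23), and the related lectin gene Mgl2 rose at least 1.05-fold. Arg1, arginase, read 19.11 to 19.26 against 18.97 to 19.05 and did not pass (0.16 ± 0.18). These readings are near the highest of the arrays, 19.86, where a difference may be understated. Of 11 genes of arginine and polyamine metabolism 3 rose (2 and 0, 3 and 0): Odc1, the entry to polyamines (1.40 ± 0.19), Asl, which forms arginine (1.38 ± 0.24), and Nos2. Klf4, Odc1 and Asl were lost in some fits of 48 arrays (adjusted p up to 0.0881, for Odc1).

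Enzymes of prostaglandins and leukotrienes rose in 3 and fell in 4 of 16 cases (0 and 3, 2 and 5). Hpgds, which makes prostaglandin D2, read 6.55, 5.48 and 6.18 against 9.31, 8.97 and 8.95 (-3.01 ± 0.26, adjusted p = 1.04e-05). Alox15, a lipoxygenase of resident macrophages, read 7.04, 6.68 and 6.92 against 9.07, 8.99 and 8.86 (-2.09 ± 0.19). Pla2g4a, the phospholipase that frees arachidonic acid, rose (1.16 ± 0.21) together with Ptgs2. In purine signalling 3 of 10 genes rose and 5 fell (0 and 0, 2 and 5), and 1 to 2 and 4 when 1 array was left out. Nt5e, the ectonucleotidase CD73, rose (1.63 ± 0.24), while the nucleotide receptors P2ry12 (-1.64 ± 0.22), P2ry13 (-1.51 ± 0.28) and P2rx7 (-1.24 ± 0.19) fell. Pla2g4a, Nt5e and these receptors were lost in some fits of 48 arrays (adjusted p up to 0.165, for P2rx7).

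Cholesterol synthesis rose in 9 of 18 genes and fell in 1 (6 and 0, 6 and 2), with a median of 0.676 (7 to 10 rose when 1 array was left out). Fdft1, squalene synthase, read 9.43, 9.49 and 9.62 against 7.47, 7.67 and 7.66 (1.91 ± 0.19, adjusted p = 3.12e-05). Cyp51 (1.74 ± 0.22) and Mvd (1.46 ± 0.23), further enzymes of the pathway, rose with it, and so did Srebf2, its master factor (0.91 ± 0.20). Insig1, which holds that factor back, fell (-1.30 ± 0.23). Fatty acid synthesis rose in 3 of 8 genes (0 and 0, 0 and 1), and 1 to 3 when 1 array was left out. In lipid handling and liver X receptor targets the direction was the opposite, with 7 of 14 down, 3 up (3 and 4, 3 and 8) and a median of -0.542. Pltp, a phospholipid transfer protein, read 8.82, 8.77 and 8.92 against 11.57, 10.81 and 10.59 (-2.15 ± 0.24), and Fabp5, a carrier of fatty acids, read 11.40, 11.84 and 12.14 against 13.87, 13.76 and 14.06 (-2.10 ± 0.22). Apoe, apolipoprotein E (-1.45 ± 0.20), and Lpl, lipoprotein lipase (-1.35 ± 0.22), fell too. Plin2, which coats lipid droplets, rose (1.14 ± 0.19). Srebf2 and Insig1 were each lost in 1 fit of 48 arrays (adjusted p = 0.101 and 0.0629).

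Cell cycle genes fell in 11 and rose in 2 of 26 cases, 2 of them at background, with a median of -0.625. Mki67, a marker of dividing cells, read 7.64, 7.94 and 7.53 with Ito cells and 9.67, 9.70 and 9.58 without (-1.94 ± 0.20, adjusted p = 3.95e-05). Cdk2, a kinase of DNA replication, read 10.16, 10.16 and 9.98 against 11.60, 11.10 and 11.50 (-1.30 ± 0.20). Mcm5, part of the replicative helicase, fell at least 1.54-fold to under background. Between 7 and 9 genes fell when 1 array was left out, 1 fell with all 48 arrays in the fit, and 19 fell with the deposited values. Mki67 and Mcm5 were lost in some fits of 48 arrays (adjusted p up to 0.302, for Mcm5).

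Genes of glycolysis and protein folding rose more often than they fell. Genes of glycolysis and hypoxia rose in 6 and fell in 1 of 23 cases (4 and 1, 7 and 3), with a median of 0.487. Slc2a1, the glucose transporter GLUT1, read 17.32, 17.49 and 17.52 against 15.96, 15.95 and 16.02 (1.47 ± 0.19). Hk1, hexokinase 1 (1.53 ± 0.20), and Pfkl, phosphofructokinase (1.25 ± 0.22), rose with it. Chaperones of the endoplasmic reticulum rose in 5 of 13 cases (4 and 0, 5 and 0), and 3 to 4 when 1 array was left out. Xbp1, a factor of the unfolded protein response, read 15.93, 15.90 and 15.88 against 14.12, 14.18 and 14.35 (1.69 ± 0.19), and Creld2 (1.31 ± 0.20) and Sdf2l1 (1.16 ± 0.19) rose too. Fkbp11, a folding enzyme of the same compartment, rose at least 6.72-fold. Of 19 genes of the ATF4, serine and folate pathways 4 rose (3 and 0, 1 and 1), and 2 to 4 when 1 array was left out, led by Ddit4, an inhibitor of mTORC1 (1.87 ± 0.26). Among 15 NRF2 and glutathione genes Nqo1 (1.39 ± 0.22) and Keap1 (1.25 ± 0.19), the inhibitor of NRF2, rose, and Nfe2l2, the gene of NRF2, fell (-1.87 ± 0.23), which are all the calls of that list (2 and 1, 2 and 4). Respiratory chain genes rose in 3 and fell in 1 of 22 cases (3 and 1, 3 and 2), and iron and heme genes in 1 and 2 of 13 (0 and 1, 2 and 3). Of all genes 9.28% rose and 6.01% fell, and these small counts are not read as results about either list. Dbp, a clock output gene, read 6.60, 6.68 and 7.10 against 9.35, 9.56 and 9.31 (-2.61 ± 0.21), and Mt2, a metallothionein, read 10.11, 10.72 and 10.89 against 13.34, 13.11 and 12.56 (-2.43 ± 0.26). Sdf2l1, Nqo1 and Keap1 were lost in 1 fit of 48 arrays (adjusted p up to 0.0899, for Keap1).

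Signalling genes of early responses changed in both directions, each of these lists in a share above the 15.3% of all genes in the same fit. That share includes 10620 genes under background in both groups. Of the 8885 others, fitted alone, 2566 passed, a higher share against which these lists were not tested. Immediate early and heat shock genes rose in 5 and fell in 3 of 19 cases (2 and 2, 3 and 6): Hsph1, a heat shock protein (1.64 ± 0.19), and Fosl2 (1.48 ± 0.23) rose, while Fos read 8.39, 7.82 and 7.98 against 9.49, 9.84 and 10.35 (-1.83 ± 0.25). Of 13 feedback genes of MAPK signalling 2 rose, with Phlda1 (1.89 ± 0.32) and Dusp5 (1.65 ± 0.19), and 2 fell (1 and 1, 2 and 4), with Etv5 (-1.67 ± 0.19). Interferon-stimulated genes rose in 6 and fell in 1 of 21 cases, but with all 48 arrays in the fit 1 passed, a fall, and with the deposited values 3 rose and 4 fell. Among the rises were Xaf1 (0.98 ± 0.20), Ifit3 (0.93 ± 0.19) and Irf7, a factor of interferon induction (0.88 ± 0.20). Among Toll-like and related receptors 5 of 19 rose and 3 fell (2 and 0, 2 and 4), and 2 to 5 and 1 to 3 when 1 array was left out. Tlr1 fell (-1.18 ± 0.20) and Nod2, a sensor of bacterial wall fragments, rose (1.07 ± 0.22). Dusp5, Xaf1, Ifit3, Irf7, Tlr1 and Nod2 were lost in some fits of 48 arrays (adjusted p up to 0.435, for Ifit3), and Ifit3 and Nod2 also with the deposited values.

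Matrix proteases and inhibitors rose in 4 and fell in 2 of 18 cases (4 and 0, 3 and 3). Plaur, the urokinase receptor (1.25 ± 0.19), and the collagenases Mmp13 (1.17 ± 0.20) and Mmp8 (1.03 ± 0.19) rose, Mmp19 fell (-1.10 ± 0.19), and Mmp9 (0.37 ± 0.19) and Timp1, an inhibitor of these enzymes (-0.19 ± 0.21), did not pass. Lysosome genes rose in 1 and fell in 3 of 15 cases (0 and 3, 0 and 4), with Gpnmb (-1.41 ± 0.19) and Atp6v1a, a subunit of the proton pump (-1.09 ± 0.20), down. Lineage transcription factors rose in 3 and fell in 2 of 23 cases (1 and 1, 2 and 5), with Runx3 up (1.45 ± 0.22), Bhlhe41 down (-1.35 ± 0.25) and Spi1, the gene of PU.1, overlapping (0.07 ± 0.19). Notch genes rose in 2 of 13 cases (1 and 0, 1 and 1), with Notch1 up (1.30 ± 0.21). Retinoid genes rose in 2 and fell in 2 of 18 cases (2 and 0, 1 and 5), with Rara, a retinoic acid receptor, up (1.05 ± 0.20) and Dhrs3, which reduces retinal, down (-0.88 ± 0.18). With 9.28% of all genes up and 6.01% down, the small counts of Notch and retinoid genes are not read as results about these lists. Mmp13, Mmp19, Runx3, Notch1, Rara and Dhrs3 were lost in some fits of 48 arrays (adjusted p up to 0.2, for Runx3).

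**Figure D3:**
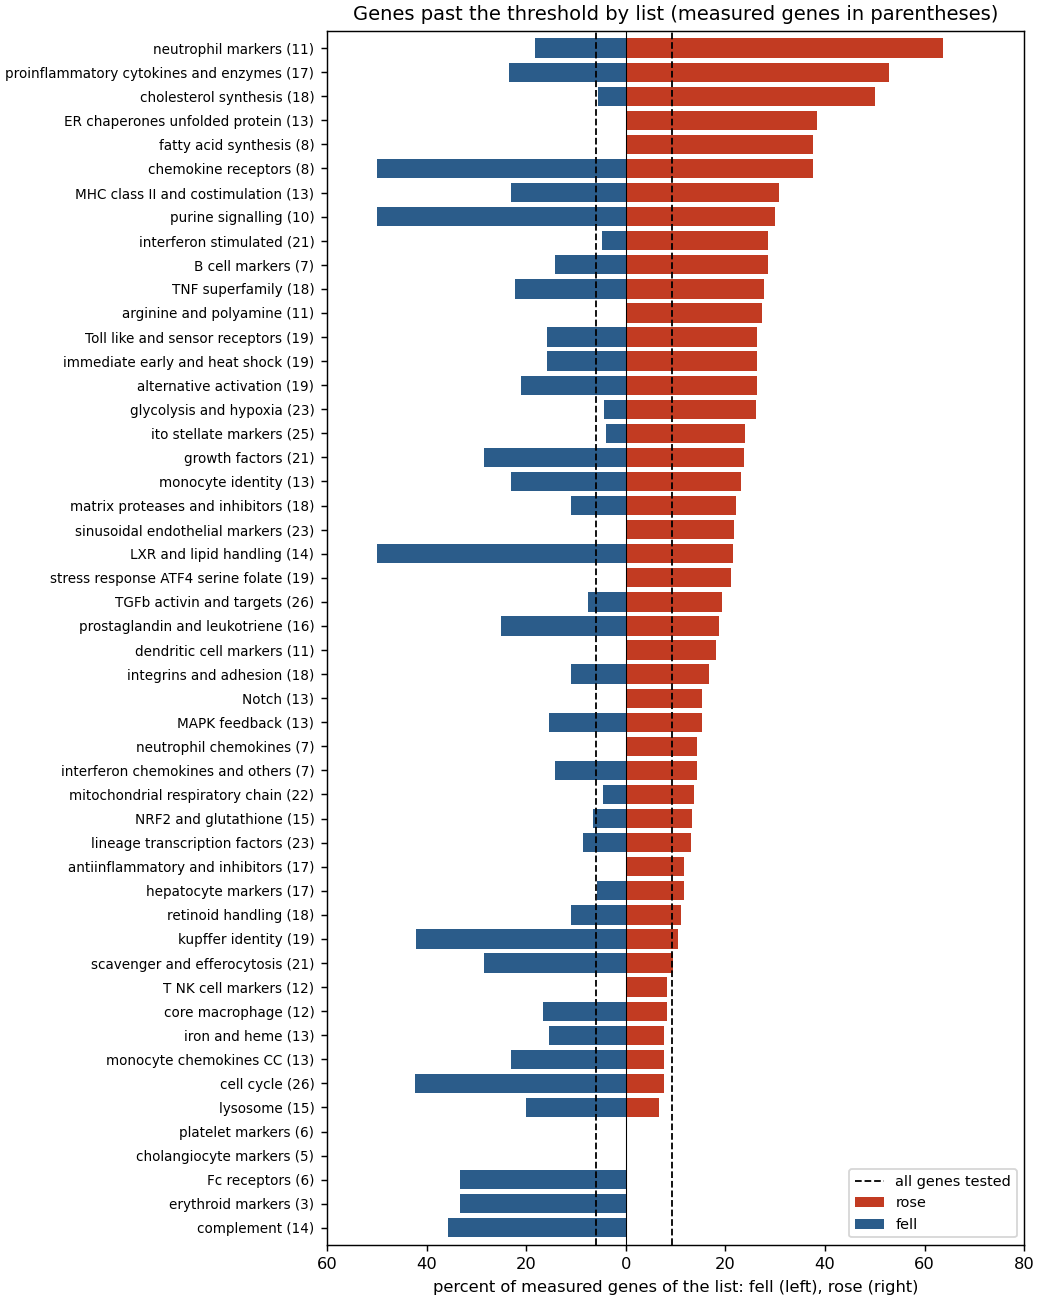
Each bar gives the percent of a list's measured genes that rose (red, right) or fell (blue, left) with Ito cells, and the dashed lines mark the shares of all genes, 9.28% and 6.01%. Neutrophil markers, pro-inflammatory genes and cholesterol synthesis reach furthest to the right, and chemokine receptors, purine signalling and lipid handling furthest to the left.

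Marker genes of other cell types were read beside these results, since a lysate may hold more than macrophages, and fewer cells of a type and less RNA per cell cannot be told apart in such samples. Of 25 Ito cell genes 19 lay under background in both groups, among them the defining markers Des, Pdgfrb, Reln, Lrat and Col3a1. The whole list averaged 4.32 to 4.39 in the Ito cultures and 4.15 to 4.22 in the controls, but 4.19 against 4.36 with the deposited values, where the direction turned. In this list 6 rose and 1 fell, 4 of these at background, and 2 to 5 rose when 1 array was left out. With all 48 arrays in the fit 1 passed, a rise, and with the deposited values 1 rose and 3 fell. Lrat, which stores vitamin A as retinyl ester, rose under background, with 4.42, 4.64 and 4.72 against 3.68, 4.01 and 3.56. Its call was lost without Ito replicates 2 or 3 or control replicate 1. Acta2, smooth muscle actin, rose at least 1.77-fold, to 6.35 to 6.50, a call lost without Ito replicate 2 or control replicate 2. Col1a1, a collagen chain, fell, with 4.81, 5.27 and 4.12 against 5.76, 6.11 and 5.42. That call was lost without Ito replicates 1 or 3 or control replicates 1 or 2. The collagen chains Col1a2 (0.83 ± 0.20) and Col3a1 (0.69 ± 0.22) rose under background instead. Sparc and Tagln rose too, and each of these calls was lost without some single arrays. Dcn, decorin, overlapped (7.03 to 7.25 against 6.69 to 7.06), with a difference of -0.18 in the deposited values. Transcripts of Des, Pdgfrb, Reln, Lrat and Col3a1 were thus under background in the Ito cultures as well.

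**Figure D4:**
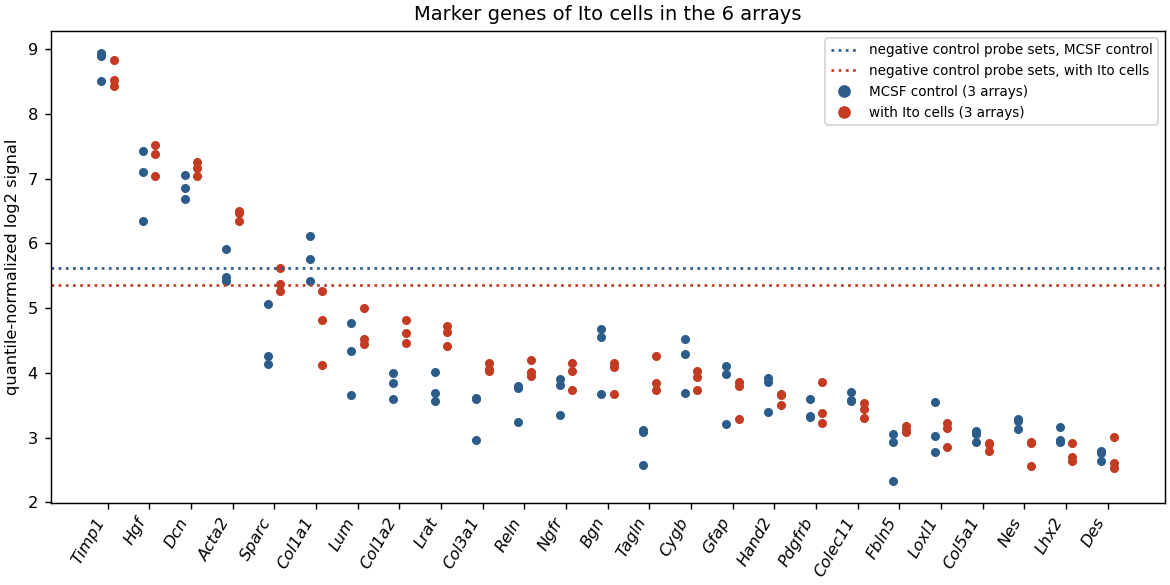
Quantile-normalized log2 signal of 25 Ito cell marker genes in the 6 arrays, ordered by their mean in the Ito cultures. Red points are Ito cultures, blue points controls, and dotted lines the negative control means. Of the 25 genes 19 lie under the lines in both groups, and Timp1, Hgf and Dcn, with overlapping arrays, are the highest.

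Sinusoidal endothelial genes rose in 5 of 23 cases (2 and 0, 2 and 2), 3 of them at background, and 2 to 5 rose when 1 array was left out. Their mean was 4.78 to 4.88 with Ito cells and 4.44 to 4.52 without (4.66 and 4.65 with the deposited values). Of the 23 genes 19 were higher with Ito cells, but 18 lay under background in both groups. The median difference of all genes was positive too, at 0.048. Adgrl4, an adhesion receptor of endothelium, read 5.69, 5.46 and 5.31 against 2.85, 3.30 and 3.07. Among the defining markers Stab2 and Clec4g stayed under background and Pecam1 did not pass. Kdr, also a defining marker, rose (adjusted p = 0.0186 in limma), a call lost without Ito replicates 2 or 3 or control replicate 2. Mcam, the gene of CD146, rose as well (adjusted p = 0.0402), a call lost without some single arrays. Hepatocyte genes averaged 4.22 to 4.44 against 4.25 to 4.31 (4.21 against 4.42 with the deposited values), and 2 rose and 1 fell of 17 (1 and 0, 1 and 2), all at background, where Alb, Ttr and Apoa1 lay as well. None of 5 cholangiocyte and 6 platelet genes passed in limma, and 2 and 1 of them had an unadjusted p under 0.05. Of all 19505 genes 5947 had such an unadjusted p. T and NK cell genes rose in 1 of 12 cases (0 and 0, 0 and 2), B cell genes rose in 2 and fell in 1 of 7 (0 and 1, 2 and 1), dendritic cell genes rose in 2 of 11 (1 and 0, 2 and 1), and 1 of 3 erythroid genes fell (0 and 1, 0 and 1). Cd3e and Ms4a1, which mark T and B cells, lay under background.

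Of 11 neutrophil genes 7 rose and 2 fell (4 and 1, 5 and 2), 3 of them at background. Their mean was 7.26 to 7.55 in the Ito cultures and 6.99 to 7.12 in the controls, but with the deposited values 7.21 and 7.22, so that the gap was gone. S100a8, a calcium-binding protein of neutrophils and monocytes, read 10.36, 10.88 and 11.33 against 8.53, 9.40 and 8.53 (2.04 ± 0.28), and Mmp8, a collagenase of neutrophils, read 19.07, 18.94 and 18.94 against 17.80, 18.05 and 18.01 (1.03 ± 0.19). Retnlg, a resistin-like gene of neutrophils, went the other way, with 4.52, 3.29 and 4.55 against 9.27, 8.68 and 8.67, at least 11.4-fold lower (-4.76 ± 0.31). Csf3r, the receptor of G-CSF, fell (-1.12 ± 0.21), though not in the fits of all 48 arrays (adjusted p up to 0.385). The part of other cells in the differences reported here was not tested.

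The response was then set against that of Kupffer cells to Ito cells at 1 day, with all 48 arrays normalized together and the difference of the responses (Kupffer cells minus monocytic macrophages) tested by limma. In this test 764 genes passed (3.92%), 291 with a higher value in Kupffer cells (1.49%) and 473 with a lower one (2.43%). Median centring gave 767 and 261, and the deposited values 360 and 370. Of the 20 largest rises in monocytic macrophages 18 also rose in Kupffer cells, where 8.33% of all genes rose. Of the 20 largest falls 9 also fell, against 7.9% of all genes. These shares are over all genes, many of them under background, while the 20 were chosen for large changes without overlap. The shares are thus not those of genes of like level. The genes named from here on were in part chosen for a large response at 1 day, which favours a smaller one elsewhere, so their differences from it are given as a description. Fst rose by 5.96 in monocytic macrophages and 5.80 in Kupffer cells, and these responses were not shown to differ (-0.15 ± 0.45, adjusted p = 0.901). Inhba rose by 5.27 and 7.16, a difference of 1.88 ± 0.55 (adjusted p = 0.0423) that was lost without any 1 of 9 of the 12 arrays (adjusted p up to 0.128). The leading pair of monocytic macrophages thus rose in Kupffer cells too.

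Il6 rose by 2.39 in monocytic macrophages and 6.90 in Kupffer cells (4.51 ± 0.83). It read 14.22, 14.30 and 14.33 in the Kupffer Ito cultures and 14.17, 13.60 and 13.55 in the monocytic ones, while the Kupffer controls read 5.35, 8.04 and 8.74 and the monocytic controls 11.02, 12.38 and 10.75. The Ito cultures of both kinds thus lay close, and the controls apart. Cxcl13 differed by 4.23 ± 0.98, with a change of -4.97 in monocytic macrophages and a value of -0.74 in Kupffer cells that did not pass, and the difference was lost with only the arrays compared in the fit (adjusted p = 0.101). Responses were higher in Kupffer cells for Atp6v0d2, a proton pump subunit (5.87 ± 0.71), the interferon-induced chemokines Cxcl9 (4.93 ± 0.37) and Cxcl10 (4.67 ± 0.83), and Chil3, a chitinase-like protein (4.60 ± 0.53). They were lower for Cd5l, a secreted protein of Kupffer cells (-8.68 ± 0.75), Adgrl4 (-8.33 ± 0.70) and F8, coagulation factor VIII (-6.13 ± 0.62). Cxcl9, Cd5l and F8 lay under background in both monocytic groups, and so did Adgrl4 in the monocytic controls.

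The Kupffer controls carried transcripts of other liver cells. Endothelial genes averaged 9.20, 7.68 and 6.85 in their replicates 1, 2 and 3, 5.84 to 5.91 in the Kupffer Ito cultures and 4.54 to 4.62 in the monocytic controls. Hepatocyte genes averaged 8.02, 6.88 and 6.12 in the same Kupffer controls and 6.21 to 6.24 with Ito cells. Neutrophil genes ran the other way, with 7.61, 9.17 and 9.02 in the Kupffer controls and 10.92, 11.05 and 10.93 in the Kupffer Ito cultures. In the monocytic cultures they averaged 7.12 to 7.24 in the controls and 7.40 to 7.70 with Ito cells. The part of these cells in the differences was not tested. The count of 764 became 495 without Kupffer control replicate 1, 1449 without its replicate 3, 481 without monocytic Ito replicate 3 and 486 without monocytic control replicate 2.

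The response at 1 day was also set against that at 3 days, where several marker genes ran against the labels. Sparc, a matrix protein of Ito cells, read 14.71, 14.94 and 12.71 in the arrays labelled as MCSF controls and 5.76, 6.79 and 5.61 in those labelled with Ito cells (response at 3 days minus that at 1 day -9.02 ± 0.71). Bgn (-5.997 ± 0.81) and Col1a2 (-4.91 ± 0.50), further matrix genes, ran the same way. Ito cell genes averaged 6.50, 6.58 and 5.78 in the group labelled as controls and 4.58 to 4.71 in the one labelled with Ito cells. Cell cycle genes averaged 6.51, 6.69 and 10.72 in control replicates 1, 2 and 3 and 10.60 to 10.71 in the Ito cultures, so that control replicate 3 stood with the Ito cultures. Kupffer cultures of 3 days ran the same way, by less for Ito cell genes. These averaged 6.29, 6.65 and 6.61 in the Kupffer MCSF controls and 5.92, 6.05 and 5.92 with Ito cells. Cell cycle genes averaged 6.64 to 6.73 in those Kupffer controls and 11.24 to 11.34 with Ito cells. Bgn and Col1a2 lay under background in both groups of 1 day. Whether the labels of the 2 monocytic groups of 3 days were exchanged was not tested. If they were, every response of monocytic macrophages at 3 days would have the opposite sign.

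By the labels as given, Fst, Inhba, Socs1 and Cish were near their controls at 3 days. The response at 3 days minus that at 1 day passed for 2060 genes (10.6%), 956 higher (4.9%) and 1104 lower (5.66%) at 3 days (1867 and 586 with the deposited values). The count of 2060 became 1338 without control replicate 1, 1272 without replicate 2 and 2637 without replicate 3. Of the 20 largest rises of 1 day 5 rose at 3 days, where 7.38% of all genes rose. Of the 20 largest falls 7 fell at 3 days, against 6.42% of all genes. These shares too are over all genes and not over genes of like level. Fst read 5.06, 4.66 and 4.51 in the Ito cultures of 3 days and 3.94, 4.36 and 4.65 in their controls, and the responses differed by -5.53 ± 0.45. Inhba read 6.02, 6.03 and 5.70 against 6.13, 5.56 and 5.58 (difference of responses -5.11 ± 0.55). Both genes had thus lost the gap between the groups. The same held for Socs1 (-3.65 ± 0.74) and Cish (-3.32 ± 0.47). Fst, Socs1 and Cish lay under background on average in both groups of 3 days. Vsig4, lower at 1 day, read 14.30, 13.74 and 14.67 against 13.94, 14.09 and 14.46 at 3 days (3.20 ± 0.41).

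Other early changes were present at 3 days by these labels. Cxcl13 changed by -5.79 and Osm by 2.26, and Trem1 was at least 3.59-fold higher, all past the threshold, and their responses were not shown to differ from those at 1 day (-0.82 ± 0.98, -0.06 ± 0.73 and -0.24 ± 0.84). Scimp passed too (1.64), under background on average in both groups of 3 days, and its response was lower than at 1 day (-2.78 ± 0.52). With the labels exchanged the values at 3 days would be 5.79 for Cxcl13, -2.26 for Osm, -2.62 for Trem1 and -1.64 for Scimp, against the direction at 1 day. Ccr2 fell at 1 day and rose by 1.85 at 3 days (4.24 ± 0.61), or changed by -1.85 with the labels exchanged. Large positive differences were those of Ch25h, cholesterol 25-hydroxylase (8.49 ± 1.34), the chemokines Ccl12 (7.78 ± 0.95), Ccl7 (7.13 ± 0.93) and Ccl2 (7.11 ± 0.83), and Arg1 (7.51 ± 0.75). Arg1 read 16.45, 16.71 and 16.69 in the Ito cultures of 3 days and 8.50, 8.90 and 9.49 in the controls, against 19.18 to 19.32 and 19.06 to 19.11 at 1 day. The controls of 3 days were thus the group that stood apart.

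Ito cells and CD146 cells were compared directly at 1 day, without the MCSF controls. Here 2371 genes passed (12.2%), 1469 higher with Ito cells (7.53%) and 902 lower (4.62%) (585 and 3273 with the deposited values). Il6 (7.68 ± 0.58), Inhba (7.59 ± 0.39), Tnfrsf9 (5.68 ± 0.52) and Scimp (5.64 ± 0.37) were higher with Ito cells. Fst was at least 138-fold and Socs1 at least 10.3-fold higher, both under background with CD146 cells. Igf1 (-7.41 ± 0.35), Cxcl13 (-5.51 ± 0.69), Cbr2 (-4.54 ± 0.65) and Vsig4 (-4.42 ± 0.29) were lower. Mki67 (-0.28 ± 0.65) and Cxcr4 (0.12 ± 0.63) did not pass. Mrc1 was higher with Ito cells than with CD146 cells (1.79 ± 0.46), though lower than in MCSF, and its call was lost without Ito replicate 1. The count of 2371 became 1549 without CD146 replicate 2, 1525 without CD146 replicate 3 and 1576 without Ito replicate 3.

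The MCSF controls of 1 day are shared by all additions, so these responses are only set side by side. Fst changed by 5.96 with Ito cells and 1.84 with HGF, and was at least 2.22-fold lower with CD146 cells, under background there, all past the threshold. Inhba changed by 5.27 with Ito cells, -2.32 with CD146 cells and 0.36 with HGF, the last not past it. In the same order Il6 changed by 2.39, -5.29 and -0.99, again with HGF not past it, and the HGF arrays were spread, with 9.08, 9.48 and 12.63. Igf1 changed by -1.79, 5.62 and 0.01, the last not past it. Fst and Inhba were thus higher with Ito cells and lower with CD146 cells than in MCSF alone, and Igf1 the reverse. In the same fit 570 genes passed with CD146 cells (2.92%), of which 229 rose (1.17%) and 341 fell (1.75%). With HGF 306 passed (1.57%), of which 166 rose (0.851%) and 140 fell (0.718%).

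**Figure D5:**
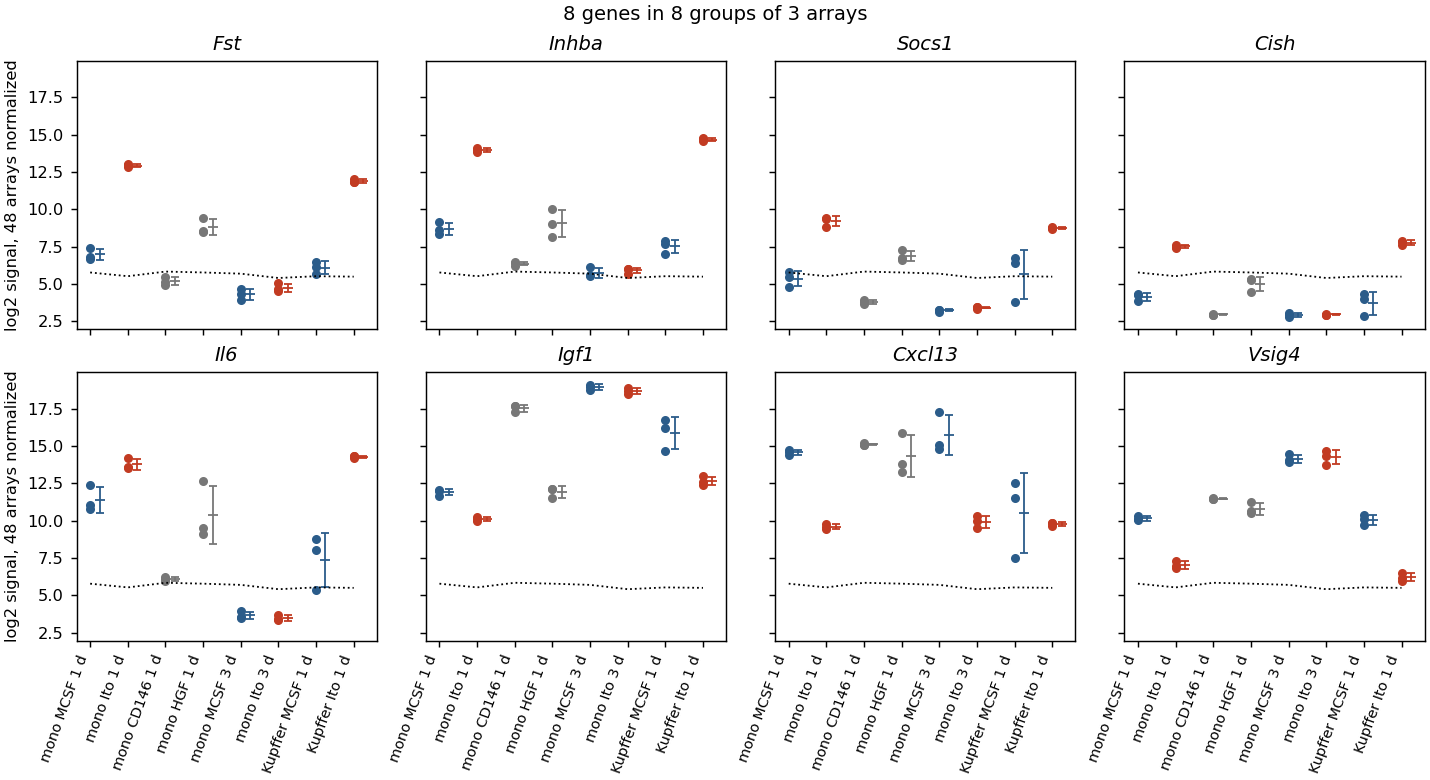
Log2 signal of 8 genes in 8 groups, normalized over all 48 arrays; points are single arrays, bars the mean ± SD (n = 3), and the dotted line the negative control mean of each group. Red marks Ito cultures, blue MCSF controls and grey the other additions. Fst, Inhba, Socs1 and Cish are high in the Ito cultures of 1 day of both cell types and low in the monocytic Ito cultures of 3 days.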

How the data were processed

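Each macrophage culture was measured on 1 Affymetrix array. The values that the authors deposited are log2 signals of probe sets, made by RMA in the Transcriptome Analysis Console per the submitters' processing notes, with a version not given in the sources used here. Of 28846 probe sets, 6640 controls and 2634 without a gene symbol were set aside, and for 55 genes with several probe sets the one with the highest mean was used, leaving 19505 genes. No filter on level was applied.

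The 6 arrays of the main comparison were quantile normalized over all probe sets, since their levels differed, and fitted in limma 3.58.1 (R 4.3.3) with 1 mean per group, default moderation and a two-sided test. The other comparisons were fitted on all 48 arrays, quantile normalized together, with 16 group means. P-values were adjusted by Benjamini and Hochberg with a threshold of 0.05. The fits were tested on simulated data in which 200 of 19505 genes were changed, in equal numbers by 2-fold and 4-fold. Of these 51 and 95 were recovered in the main comparison, and 44 and 94 for Ito against CD146 cells. The difference between cell types recovered 13 and 75, and that between times 14 and 80. Most 2-fold differences of responses were thus missed in the simulated data. Unchanged genes were called there in 9, 3, 8 and 7 cases, in the order given. Fewer genes were changed than passed in the data, so these shares cannot be carried over to it. Plots were made in Python 3.11.15 (pandas 2.3.3, matplotlib 3.10.9). Background is the mean of 5222 negative control probe sets. The number of arrays limits the precision of all values.

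Genes were named by a rule: up to 20 largest rises and 20 largest falls that passed without overlap of the groups (10 each way in the other comparisons), up to 8 members of each of 50 gene lists taken in order of adjusted p, and a set of macrophage, cytokine and Ito cell genes. Unnamed gene models and families of near-identical genes were skipped, so the 20 largest rises and falls counted above are those among the remaining genes. Among those admitted, genes were picked for length with their values in view. The members, comparisons, lists and rule were chosen with earlier results of these data known. Alternatives changed the normalization, the arrays in the fit, the filter on dim genes, the probe sets, the variance model, the call rule and the replicates. Equal replicate numbers were checked for pairing: their deviations from the group means correlated by 0.076, -0.007 and 0.162 for numbers 1, 2 and 3. Unequal numbers correlated by -0.154 to 0.093, a range that only number 3 exceeded. No pairing was used, and the check cannot exclude it. No arrays were identical.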

Additional observations from a re-analysis of the deposited data

Results flagged for a closer look

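Responses to Ito cells that differed between groups, by limma's test of the difference itself (adjusted p under 0.05), are given here as log2 differences of responses. Between Kupffer cells and monocytic macrophages at 1 day 764 genes differed. Of the genes considered by name, those with a higher response in Kupffer cells were Atp6v0d2 (5.87), Cxcl9 (4.93), Cxcl10 (4.67), Chil3 (4.60), Il6 (4.51), Ccn3 (4.26), Cxcl13 (4.23), Tmem154 (4.22), Cxcl1 (4.12) and Inhba (1.88). Those with a lower response were Cd5l (-8.68), Adgrl4 (-8.33), F8 (-6.13), Aqp1 (-5.45), Clu (-5.17) and Krt19 (-4.67).

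Between 3 days and 1 day of co-culture of monocytic macrophages 2060 genes differed. Of the genes considered by name, those with a higher response at 3 days were Ch25h (8.49), Ccl12 (7.78), Arg1 (7.51), Ccl7 (7.13), Ccl2 (7.11), Bub1 (5.21), Retnlg (5.10), Mki67 (4.90), Hells (4.84), Egr1 (4.83), Cbr2 (4.48), Ccr2 (4.24), Vsig4 (3.20) and Igf1 (1.52). Those with a lower response were Sparc (-9.02), Itgal (-6.29), Adgre4 (-6.12), Bgn (-6.00), Fst (-5.53), Tmem176b (-5.18), Inhba (-5.11), Id3 (-4.93), Col1a2 (-4.91), Igfbp7 (-4.87), Socs1 (-3.65), Cish (-3.32), Hdc (-3.12), Il1b (-2.89), Scimp (-2.78) and Il6 (-2.57). Inhba and Cxcl1 between the cell types, and Igf1, Il1b and Il6 between the times, lost their call when some single arrays were left out. Ito cell marker genes of the arrays of 3 days ran against the labels, and with those labels exchanged each response at 3 days would have the opposite sign. Marker levels that moved with these groups stand beside the results above, and their part was not tested.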

How the results depend on the processing

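No named gene that passed reversed its direction in any alternative tried, while 9 that did not pass (Apoa1, Clec4g, Dcn, Hgf, Krt19, Ms4a1, Pdgfrb, Pecam1 and Stab2) had the opposite sign with the deposited values. In the main comparison 225 genes were followed over 4236 values, of which 3931 kept their side of the threshold, 285 lost it and 20 gained it (Abca1, Ccl2, Cd3e, Csf1r, Csf2, Il10, Ly6c2, Met and Socs3). In the other 3 comparisons 28, 33 and 27 genes were followed. The replicate block, which paired equal numbers, gave 3348, 750, 2000 and 2311 genes in the 4 comparisons. In the main comparison the count of 2982 was 1769 with all 48 arrays quantile normalized in the fit, 4948 with the deposited values, 1070 with a 2-fold limit added, and 1711 to 2802 with 1 array left out. For the difference between Kupffer cells and monocytic macrophages, 764 became 295 with only the arrays compared, and 481 to 1449 with 1 array left out. For the difference between the times, 2060 became 1272 to 2637. For Ito against CD146 cells, 2371 became 3858 with the deposited values, 4683 with only the arrays compared, and 1525 to 1845 with 1 array left out. The cause of these changes was not tested. Genes under the mean of the negative controls have no level shown to be above background, so their differences carry little weight.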
